A study of Rattus norvegicus with 24 samples.

Results

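The transcripts described here are 10 genes of the endoplasmic reticulum (ER) stress response and the integrated stress response: Hspa5, Hsp90b1, Calr, Herpud1, Atf6, Xbp1, Atf4, Ddit3, Trib3 and Asns. They were taken by gene name and rat Entrez identifier, not by their values, from the 17334 genes listed for each animal. All 10 had a row in every file and all 10 were among the 12778 genes that passed the filter on low counts.

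The samples were left kidneys of 24 male PKD/Mhm (Cy/+) rats aged 8 months, which carry a missense change in Anks6 and develop polycystic kidneys. All 4 groups, of 6 animals each, had this genotype, and no healthy rats were analysed here. Ctrl rats were untreated. The other groups were treated monthly for 6 months with human skin-derived ABCB5+ stromal cells given intraperitoneally (i.p. ABCB5+) or intravenously (i.v. ABCB5+), or with CoCM, the cell-free supernatant of ABCB5+ cells grown with THP-1 macrophages and stimulated with IFN-gamma and LPS. The sources give the route of the medium differently. Whole kidney tissue was sequenced, so fewer cells of a type and less RNA per cell cannot be told apart. The control animals have lower animal numbers than all treated animals, so an effect of that order and an effect of treatment cannot be told apart. Between 9304630 and 14125457 counts were assigned to genes per animal.

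The ER folds secreted and membrane proteins. When unfolded proteins accumulate there, the sensors PERK, IRE1 and ATF6 raise chaperones and degradation factors, an answer called the unfolded protein response. PERK and other kinases also phosphorylate eIF2alpha, which lowers general translation while favouring translation of ATF4, and ATF4 raises genes of amino acid supply and, under lasting stress, Ddit3. Much of this regulation acts by cleavage, splicing and translation, which transcript counts per gene do not record.

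The promoters of 6 of the genes are shown because they hold the short elements through which this response is known to act. The sequences are from RefSeq on the build GRCr8, from 250 bases before to 50 bases after the start of each gene, read 5′ to 3′ along the gene. Capitals mark matches, on either strand, to the ER stress element (ERSE, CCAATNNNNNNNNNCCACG), ERSE-II (ATTGGNCCACG) or the C/EBP-ATF element (TGATGNAA), with the gap bases left in lower case.
Hspa5 (chr3:38452766-38453065, plus strand): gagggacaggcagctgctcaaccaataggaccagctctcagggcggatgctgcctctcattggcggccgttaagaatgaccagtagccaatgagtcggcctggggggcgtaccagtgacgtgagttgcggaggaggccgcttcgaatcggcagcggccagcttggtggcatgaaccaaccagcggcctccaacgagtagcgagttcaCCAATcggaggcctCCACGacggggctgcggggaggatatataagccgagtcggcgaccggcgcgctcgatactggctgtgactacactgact
Hsp90b1 (chr7:23012244-23012543, minus strand): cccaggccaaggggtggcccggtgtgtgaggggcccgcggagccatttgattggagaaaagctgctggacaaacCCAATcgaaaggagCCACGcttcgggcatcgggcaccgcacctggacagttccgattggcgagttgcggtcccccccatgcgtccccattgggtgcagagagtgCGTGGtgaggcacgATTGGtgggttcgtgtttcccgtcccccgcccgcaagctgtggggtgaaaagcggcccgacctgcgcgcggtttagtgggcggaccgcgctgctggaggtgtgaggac
Calr (chr19:40213117-40213416, plus strand): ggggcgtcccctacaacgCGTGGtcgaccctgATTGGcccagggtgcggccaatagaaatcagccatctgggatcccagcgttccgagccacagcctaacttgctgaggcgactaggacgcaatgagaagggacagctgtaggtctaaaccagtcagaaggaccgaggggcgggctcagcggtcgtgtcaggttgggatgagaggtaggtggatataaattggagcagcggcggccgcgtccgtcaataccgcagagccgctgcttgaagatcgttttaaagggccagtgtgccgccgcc
Xbp1 (chr14:84604373-84604672, plus strand): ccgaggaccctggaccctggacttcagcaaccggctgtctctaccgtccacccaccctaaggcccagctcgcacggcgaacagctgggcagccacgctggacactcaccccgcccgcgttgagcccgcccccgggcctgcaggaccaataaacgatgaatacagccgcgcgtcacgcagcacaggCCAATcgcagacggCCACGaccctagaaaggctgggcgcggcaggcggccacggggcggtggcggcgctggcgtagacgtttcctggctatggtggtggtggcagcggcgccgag
Herpud1 (chr19:10614658-10614957, minus strand): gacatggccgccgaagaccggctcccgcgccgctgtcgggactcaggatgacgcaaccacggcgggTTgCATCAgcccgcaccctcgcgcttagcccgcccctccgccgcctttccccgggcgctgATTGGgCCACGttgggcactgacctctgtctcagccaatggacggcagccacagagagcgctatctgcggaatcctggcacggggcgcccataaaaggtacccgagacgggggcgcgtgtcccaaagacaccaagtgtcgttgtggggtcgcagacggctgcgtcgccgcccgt
Trib3 (chr3:161275484-161275783, minus strand): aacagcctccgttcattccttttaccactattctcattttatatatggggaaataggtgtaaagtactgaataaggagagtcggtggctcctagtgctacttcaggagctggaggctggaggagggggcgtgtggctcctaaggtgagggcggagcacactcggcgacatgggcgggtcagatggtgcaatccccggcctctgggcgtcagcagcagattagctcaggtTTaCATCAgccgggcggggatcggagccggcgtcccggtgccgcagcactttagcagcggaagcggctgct
ERSE was found in the promoters of Hspa5, Hsp90b1, Calr and Xbp1, which is 4 of the 9 members with a promoter sequence, against 0.0657% of all 33469 promoters of this length. Hsp90b1 held it at 2 positions, beginning 176 and 72 bases before the start. ERSE-II was found in Herpud1 and in 0.0508% of all promoters. The C/EBP-ATF element was found in Trib3 and Herpud1 and in 3.98% of all promoters, and the UPRE (TGACGTGG) in 0 members and 0.595% of all promoters. The CCAAT letters of ERSE alone occurred in 37.5% of promoters. These matches describe letters and not bound sites.

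By TPM, a unit that corrects for transcript length and library size and so allows genes to be set side by side, Calr was the most abundant member at 745 ± 56.1 (SD, n = 24) and lay above every other member in every animal. Hsp90b1 (339 ± 34.4), Hspa5 (323 ± 53.7), Atf4 (302 ± 22.5), Herpud1 (214 ± 45) and Xbp1 (192 ± 17.2) followed, and each overlapped its neighbour in this order. Ddit3 was lower, at 68.1 ± 7.71 TPM. Asns (19.4 ± 2.66) and Atf6 (13.4 ± 5.98) overlapped each other. Trib3 was the least abundant, at 1.63 ± 0.588 TPM.

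Animals 36 and 37 (i.v. ABCB5+), 38 (i.p. ABCB5+) and 39 (CoCM) stood apart from the other 20 in many genes. Their summed TPM of 6 injured tubule markers was 412 to 691, against 6501 to 13980 in the other 20. Spp1 gave most of this sum, at 326 to 566 against 6141 to 13258.5 TPM. Havcr1, Lcn2 and Vcam1 also lay below the other 20, and Sox9 and Krt18 overlapped. The summed TPM of 5 macrophage markers was 12.6 to 35.6 against 92.9 to 222, that of 5 fibroblast markers 52.6 to 199 against 309 to 1280, and that of 8 proximal tubule markers 3360 to 4936 against 811 to 3491. Each macrophage marker lay below, as did the fibroblast markers except Col1a2, which overlapped. Of the proximal tubule markers, Slc34a1 (1946 to 2951 against 357 to 1855 TPM) gave most of the sum. Only Slc34a1 and Slc22a6 lay above, and the others overlapped. None of these markers was at 0 in every sample, and kidney markers were present in all groups. Of all genes tested, 24.2% had these 4 animals entirely outside the range of the other 20. Because the animals are unevenly spread over the groups, and none is a control, results that rest on them are given with and without them.

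Comparisons between groups were made on CPM, counts scaled to library size by TMM. No member changed with treatment at an adjusted p under 0.05. In edgeR's quasi-likelihood test with Benjamini-Hochberg adjustment over all 12778 genes, 0 of 10 members were called for CoCM against Ctrl, where 0.00783% of all genes were called, and 0 of 10 for i.p. ABCB5+ and for i.v. ABCB5+, where 0% of genes were called. At an unadjusted p under 0.05 the count was 2 of 10 for CoCM (Atf4 and Atf6) against 11.9% of all genes. It was 0 of 10 for i.p. against 1.77%, and 1 of 10 for i.v. (Atf4) against 5.78%. The i.v. count was 0 without animals 36 to 39, without i.v. animal 37 alone and in unscaled log2 TPM, and 2 without any of Ctrl animals 12 and 24, CoCM animal 39 and i.v. animals 33, 42 and 43. It was also 2 with a length index as a covariate, a measure of how long against short transcripts fared in each library, chosen after seeing the data and described with Atf6. The CoCM count was 1 without Ctrl animal 24, without CoCM animal 26, in unscaled log2 TPM and with the length index, and 3 without animals 36 to 39, without CoCM animal 39 alone and under limma-voom. That for i.p. was 1 under limma-voom and in a fit of the groups compared alone. DESeq2, limma-voom and limma-trend also called 0 members in each comparison. The 3 comparisons share the control animals and are not independent. The median log2 fold change of the members was 0.12 for CoCM, 0.052 for i.p. and 0.051 for i.v., against 0.0088, 0.0037 and 0.013 over all genes tested. The CoCM median was 0.0041 in unscaled log2 TPM, 0.027 with the length index, 0.056 under limma-voom, 0.065 without animals 36 to 39, 0.066 without CoCM animal 26 and 0.17 without CoCM animal 40. In unscaled log2 TPM the median was -0.0061 for i.p. and -0.039 for i.v., so it turned sign in both. Without animals 36 to 39 it was 0.0035 for i.p. and 0.051 for i.v., and with the length index -0.0013 for i.p. and 0.036 for i.v. Without 1 animal it ran from -0.0030 (Ctrl 23) to 0.098 (Ctrl 18) for i.p. and from -0.00024 (i.v. 28) to 0.070 (Ctrl 18) for i.v.

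**Figure D1:**
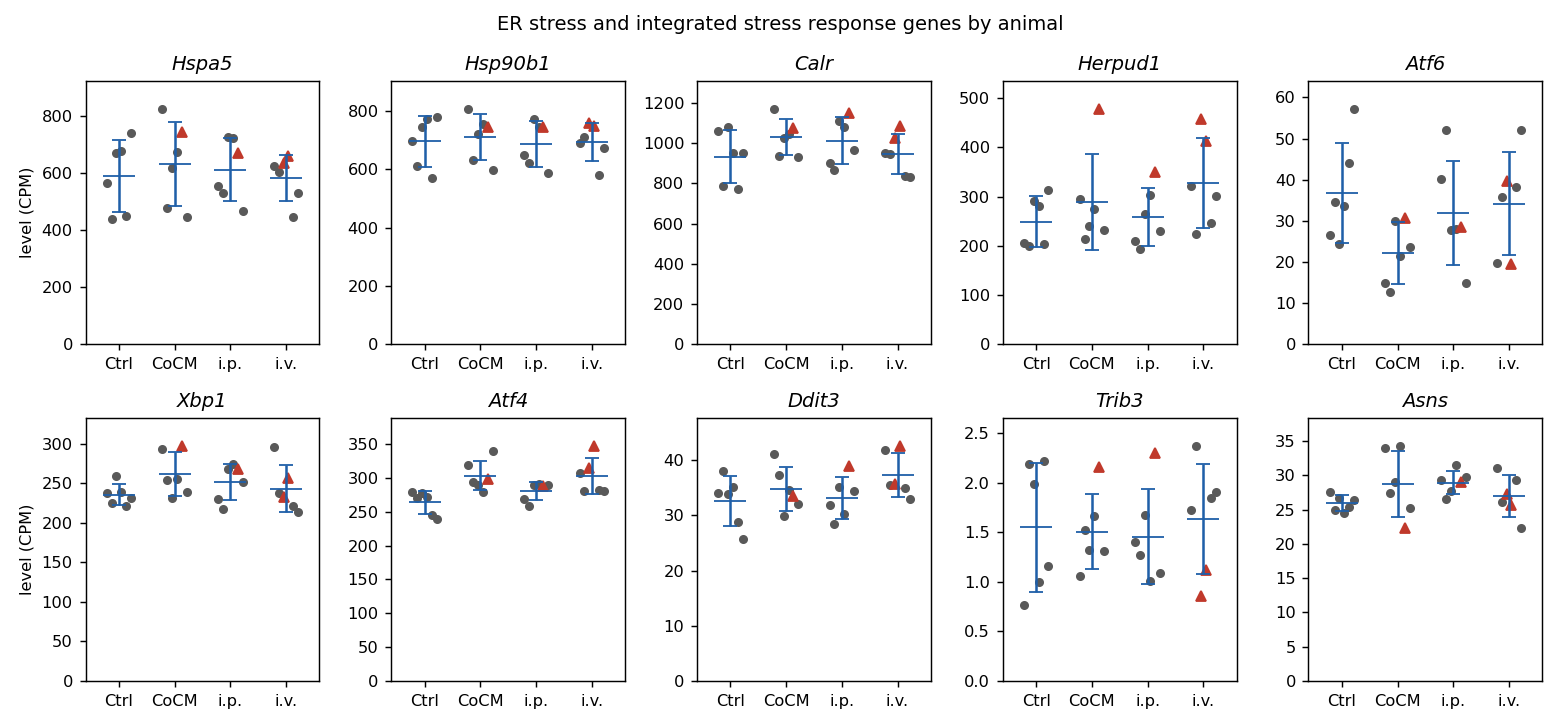
Level of each gene (CPM, vertical axis starting at 0) by group (horizontal axis) for 24 animals. Each point is an animal, red triangles are animals 36 to 39, and bars are the mean ± SD of 6 animals. The groups overlap for every gene except Atf4, where CoCM and i.v. ABCB5+ lie above Ctrl, and Herpud1 is highest in the 4 red animals.

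**Figure D2:**
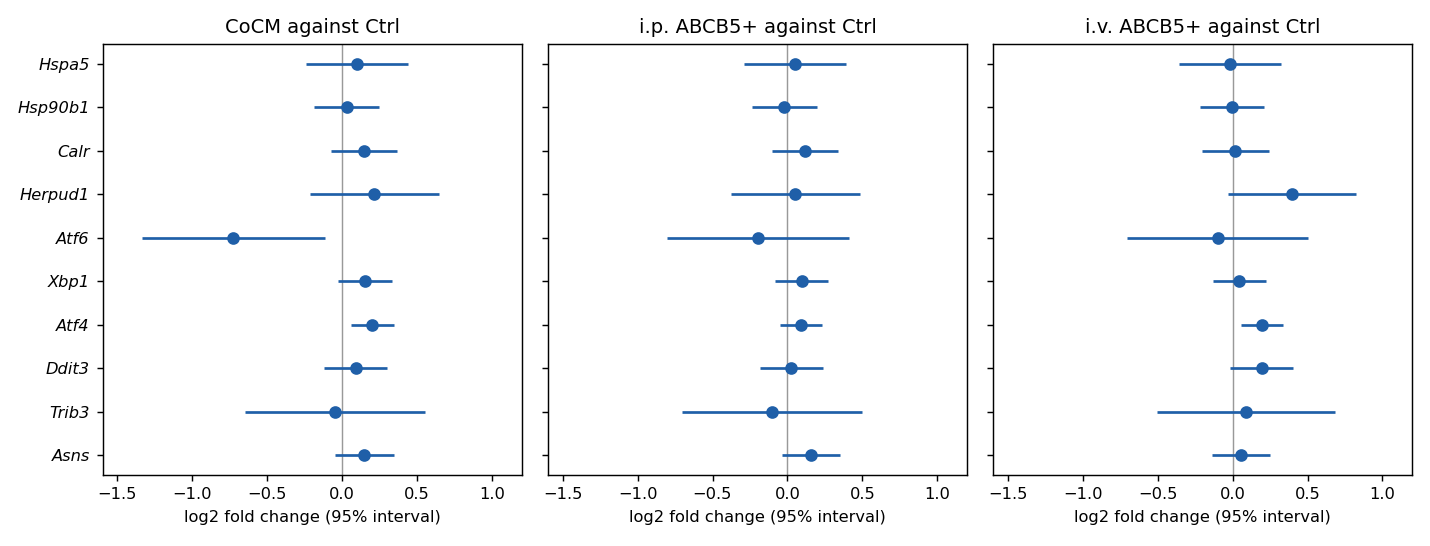
Log2 fold change against Ctrl (horizontal axis) with its 95% interval for each gene (vertical axis) and treatment, from edgeR on 24 animals. The intervals of Atf4 for CoCM and i.v. ABCB5+ and of Atf6 for CoCM do not include 0, before adjustment for the number of genes tested.

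Hspa5, the ER chaperone BiP that also binds the stress sensors, ranged from 440 to 739 CPM in untreated animals (median 618), from 447 to 824 after CoCM (median 647), from 468 to 727 after i.p. cells (median 612) and from 444 to 659 after i.v. cells (median 613). The 4 groups overlapped almost fully. Its log2 fold change was 0.10 (SE 0.16, 95% interval -0.25 to 0.44, edgeR adjusted p = 0.787) for CoCM and -0.019 (-0.36 to 0.32, adjusted p = 0.967) for i.v. cells. Leaving out 1 animal at a time, the CoCM value ran from 0.0057 to 0.18. Hsp90b1, the ER form of HSP90, was at 696 ± 87.5 CPM in Ctrl and 710 ± 79.3, 687 ± 77.3 and 694 ± 65.3 in CoCM, i.p. and i.v. (SD, n = 6). Its intervals were narrower, from -0.19 to 0.24 for CoCM, -0.23 to 0.19 for i.p. and -0.22 to 0.21 for i.v. on the log2 scale. Calr encodes calreticulin, a chaperone of glycoproteins that also binds calcium. The mean was 1031 ± 89.8 CPM with CoCM, 1013 ± 118 with i.p. cells, 946 ± 101 with i.v. cells and 934 ± 131 without treatment, and the largest of its log2 differences was 0.14 (SE 0.11, adjusted p = 0.552, edgeR) for CoCM. It was 0.042 in unscaled log2 TPM, 0.013 with the length index as a covariate, and 0.081 without Ctrl animal 23.

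The spread of these chaperones lay between animals and not between groups. Over the 20 animals other than 36 to 39, Hspa5 and Hsp90b1 rose and fell together (Pearson's r 0.97, Spearman's rho 0.96, permutation p = 1e-05 for each, the smallest that 100000 resamples can give, adjusted p = 0.00045 over the 45 pairs of members). Without the 2 animals farthest from the median of Hspa5 r was 0.97, and with each group centred on its mean it was 0.98. Calr followed Hspa5 with r 0.78 (rho 0.78, permutation p = 5e-05, adjusted p = 0.00112, r 0.69 without the 2 farthest animals). Herpud1 did so with r 0.69 (rho 0.68, permutation p = 0.00122, adjusted p = 0.00686, r 0.64 without the 2 farthest), and Xbp1 and Calr were related with r 0.74 (rho 0.80, permutation p = 0.00015, adjusted p = 0.00169, r 0.82 without the 2 farthest). In unscaled log2 TPM r was 0.45 for Xbp1 with Calr, 0.63 for Hspa5 with Herpud1 and 0.79 for Hspa5 with Calr. Atf4 and Ddit3 did not follow Hspa5, with r 0.03 and 0.04. Both were related to Xbp1, with r 0.56 each (permutation p adjusted over the 45 pairs 0.0298 each). Without the 2 farthest animals these were 0.39 for Atf4 and 0.26 for Ddit3. Atf4 and Ddit3 were related to each other with r 0.59 (adjusted permutation p = 0.0208, r 0.68 without the 2 farthest), and Atf4 to Calr with r 0.43 (adjusted permutation p = 0.12).

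**Figure D3:**
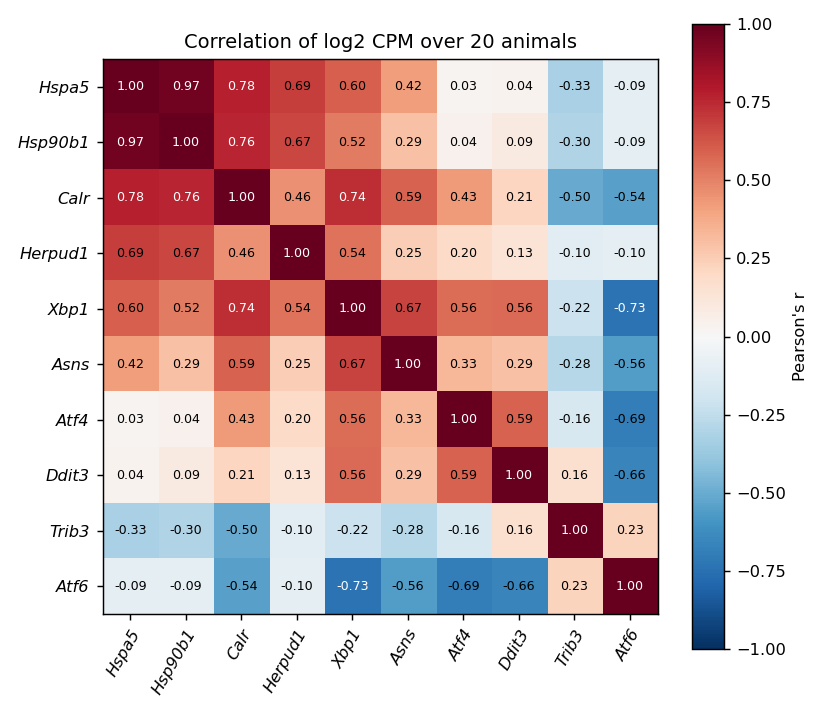
Pearson's r between the log2 CPM of each pair of genes (rows and columns) over 20 animals, animals 36 to 39 left out. Red is positive and blue negative. Hspa5, Hsp90b1, Calr and Herpud1 form a block of positive values from 0.46 to 0.97, and Atf6 is negative with Xbp1, Atf4 and Ddit3.

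The same animals were high in most other ER chaperones. Of the 18 other ER chaperones and folding enzymes on the pathway list, 13 (72.2%) had r above 0.6 with Hspa5, among them Pdia4 (0.86), Manf (0.84), Hyou1 (0.82), Creld2 (0.82) and Dnajb9 (0.81). Of the 71 other pathway genes 9 (12.7%) did, and of all genes tested 5.65%. Among 11644 genes searched, those most like Hspa5 were Hspa8 (r 0.94), Cct6a (0.94) and St13 (0.89), and Cct6a (0.91) and Hspa8 (0.89) were also nearest to Hsp90b1. Nearest to the others were Cct5 for Calr (r 0.90), Folr1 for Herpud1 (0.88), Srm for Xbp1 (0.87), Inava for Asns (0.87), Snrpa for Atf4 (0.85), Safb for Trib3 (0.83) and Polr1h for Ddit3 (0.80). The summed TPM of 5 collecting duct markers moved the other way, with r -0.68 for Hspa5 and -0.75 for Hsp90b1, as did 5 podocyte markers with r -0.63 and -0.50 and 6 immediate early genes with r -0.51 and -0.49 (n = 20). Herpud1 had r -0.63 with the collecting duct markers. The podocyte markers had r -0.76 with Calr and -0.73 with Asns. The sum of 8 proximal tubule markers moved the same way as Herpud1 (r 0.59), Hsp90b1 (0.49) and Hspa5 (0.42). The part of these markers in the result was not tested.

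Herpud1, a membrane protein of the machinery that hands misfolded proteins from the ER to the proteasome, was the member with the clearest mark of the 4 animals that stood apart. Animals 36, 37, 38 and 39 were at 458, 414, 351 and 478 CPM, all above the other 20, which ranged from 194 to 321 (median 244). Among members 1 of 10 lay above in this way, as did 10% of all genes tested, so the separation is not particular to Herpud1. The ratio of the Herpud1 means was 1.68. Its separation held in TPM after TMM scaling (a setting chosen after seeing the data), while in unscaled TPM the ranges overlapped. Unscaled TPM lowered the median gene of the 4 animals by a log2 difference of -0.22 against the other 20, which was 0.023 in log2 CPM. In i.v. ABCB5+ Herpud1 was at 328 ± 91.8 CPM against 249 ± 51.7 in Ctrl, a log2 difference of 0.40 (SE 0.21, edgeR adjusted p = 0.673), and without the 4 animals it was 0.13. In CoCM the difference was 0.21 with them and 0.0041 without.

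Atf6, the transcription factor that is cut free from the ER membrane under stress, was the most variable member relative to its level, ranging 4.49-fold over the animals. Ctrl animals were at 24.5 to 57.1 CPM (median 34), CoCM animals at 12.7 to 30.6 (median 22.5), i.p. at 14.9 to 52.1 (median 28.3) and i.v. at 19.4 to 52.0 (median 37). All 6 CoCM animals lay below the Ctrl mean, and the ranges overlapped. The log2 difference for CoCM was -0.73 (SE 0.30, 95% interval -1.34 to -0.11), with an edgeR p of 0.0222 that did not survive adjustment (0.376), and an exact two-sided permutation test over the divisions of 12 animals gave p = 0.0303. It was -0.86 without animals 36 to 39. For i.p. it was -0.20 and for i.v. -0.10. Leaving out 1 animal at a time, the i.p. difference ran from -0.41 to -0.0315 and the i.v. difference from -0.26 to 0.056.

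Atf6 tracked a property of the libraries that many genes share. A length index was computed for each animal as the mean centred log2 CPM of the 20% of tested genes with the longest transcripts less that of the 20% with the shortest, members left out; it was chosen after seeing the data. Over 20 animals Atf6 rose with it (r 0.90, rho 0.92, permutation p = 1e-05 for each, the smallest possible, adjusted p = 1e-04 over 10 members), and r was 0.92 without the 2 animals farthest from the median. Of all genes tested, 8.18% had r above 0.8. The index was below 0 in every CoCM animal, at -0.32 to -0.063, and spanned -0.19 to 0.34 in Ctrl, -0.28 to 0.31 in i.p. and -0.22 to 0.23 in i.v. With the index as a covariate the CoCM difference of Atf6 was -0.17. The genes most like Atf6, Crebrf, Lrp6 and Glg1 (r 0.98 each), were at the 96.8, 92.9 and 93.7 percentiles of length. Atf6 itself was at the 75.9 percentile. Xbp1 ran the other way with r -0.77, Calr with -0.74 and Atf4 with -0.68, and 13.0% of all genes had r under -0.6. Asns with r -0.54 and Ddit3 with -0.51 did not reach that limit. The permutation p adjusted over 10 members was 2e-04 to 0.0373 for Xbp1, Calr, Atf4, Asns and Ddit3. Without the 2 farthest animals their r was -0.76, -0.70, -0.62, -0.60 and -0.44. Their transcripts ran from the 7.46 percentile of length for Ddit3 to the 46.98 percentile for Asns. Xbp1 was at 40.8 and Calr at 41.9. Hsp90b1, at the 68.1 percentile, had r -0.32 (adjusted permutation p = 0.19). Trib3, with a transcript at the 24.6 percentile of length, had r 0.42. The negative relations of Atf6 with Xbp1 (r -0.73), Atf4 (-0.69) and Ddit3 (-0.66) (permutation p adjusted over 45 pairs 0.00216, 0.00472 and 0.00787) were -0.71, -0.67 and -0.62 in TMM-scaled log2 TPM, and -0.22, -0.0097 and -0.16 in unscaled log2 TPM.

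**Figure D4:**
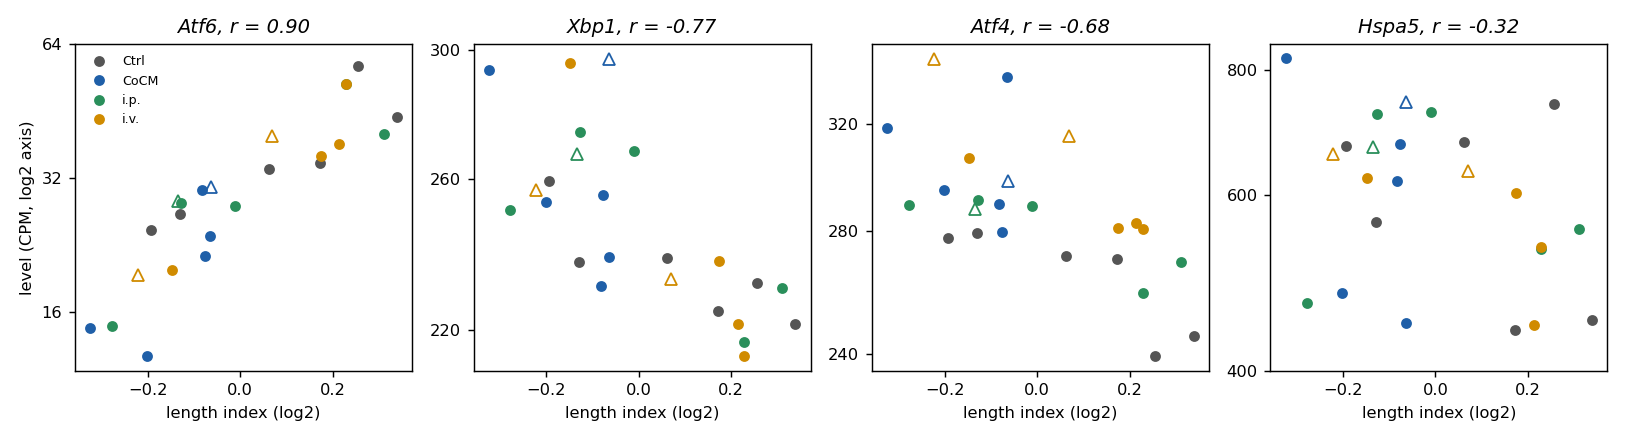
Level of 4 genes (CPM, log2 vertical axis) against the length index of the library (log2, horizontal axis). Each point is an animal coloured by group, open triangles are animals 36 to 39, and r is over the other 20 animals. Atf6 rises with the index, Xbp1 and Atf4 fall, and Hspa5 shows r -0.32.

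Xbp1 encodes the factor whose transcript IRE1 splices, and gene counts do not separate its spliced form. Untreated animals had 235 ± 13.6 CPM, CoCM animals 261 ± 27.7, i.p. animals 251 ± 23.2 and i.v. animals 243 ± 29.8 (SD, n = 6). The log2 difference for CoCM was 0.15 (SE 0.086, edgeR adjusted p = 0.463), 5 of 6 animals lay above the Ctrl mean, and with the length index as a covariate the difference was 0.041.

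Atf4, the central transcription factor of the integrated stress response, was the only member whose groups did not overlap in CPM. Ctrl animals were at 239 to 279 CPM (median 271), CoCM at 280 to 339 (median 296), i.p. at 259 to 291 (median 288) and i.v. at 281 to 347 (median 295). All CoCM and all i.v. animals therefore lay above all Ctrl animals, although the nearest were close, at 279 CPM in Ctrl, 280 in CoCM and 281 in i.v., while i.p. overlapped Ctrl. Among members 1 of 10 did not overlap Ctrl in CoCM, against 1.38% of all genes, 1 of 10 in i.v. against 0.11%, and 0 of 10 in i.p. against 0.047%. The log2 difference was 0.20 for CoCM (SE 0.069, 95% interval 0.059 to 0.34, edgeR adjusted p = 0.321) and 0.20 for i.v. (SE 0.069, 0.054 to 0.34, adjusted p = 0.673). The exact two-sided permutation test gave p = 0.00216 for each, the smallest that 6 against 6 allows. For i.p. the difference was 0.090 (-0.052 to 0.23), and i.p. and i.v. differed by -0.11 (-0.25 to 0.036), which passed no threshold. Atf4 varied little within groups, with a smaller SD of log2 CPM (0.099) than all but 3.45% of genes tested.

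The size of the Atf4 difference depended on scale and on libraries. In unscaled TPM it was 0.092 for CoCM and 0.11 for i.v., and the ranges overlapped; after TMM scaling of TPM it was 0.18 and 0.19, and they did not. With the length index as a covariate it was 0.12 for CoCM and 0.18 for i.v. Without animals 36 to 39 it was 0.20 and 0.12.

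Ddit3, which encodes the death-promoting factor CHOP, averaged 37.2 ± 3.98 CPM in i.v. animals, against 32.6 ± 4.47 in Ctrl, 34.7 ± 3.99 with CoCM and 33.2 ± 3.80 with i.p. cells. All 6 i.v. animals lay above the Ctrl mean, the ranges overlapped, and the log2 difference was 0.19 (SE 0.10, edgeR adjusted p = 0.673). This difference ran from 0.12 to 0.24 when 1 animal at a time was left out, and from 0.10 to 0.19 over 10 alternative settings. Trib3, a pseudokinase induced by ATF4 and CHOP, stayed between 0.770 and 2.37 CPM in all animals, where a count of 3 equals 0.212 to 0.322 CPM. Its log2 intervals were wide, from -0.65 to 0.55 for CoCM. Asns makes asparagine and is raised by ATF4 when amino acids are short. It was at 25.9 ± 1.19 CPM in Ctrl and 28.9 ± 1.69 in i.p., where 6 of 6 animals lay above the Ctrl mean and the ranges overlapped in CPM and in unscaled TPM, but not in TMM-scaled TPM, where all i.p. animals were higher (log2 difference in CPM 0.16, SE 0.094, edgeR adjusted p = 0.978, exact permutation p = 0.00866).

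Comparisons among the treated groups called no member either. For i.p. against i.v. ABCB5+, 0 of 10 members were called, as were 0% of all genes, and 0 of 10 had an unadjusted p under 0.05 against 2.14% of genes. For CoCM against the mean of both cell groups, 0 of 10 were called (0% of genes) and 1 of 10, Atf6 with a log2 difference of -0.58 (edgeR adjusted p = 0.688), had an unadjusted p under 0.05 against 7% of genes. Over 10 alternative settings this Atf6 difference ran from -0.77 to -0.14. In the test for any difference among the 4 groups, 0 of 10 were called (0% of genes), and 1 of 10, Atf4 (edgeR adjusted p = 0.817), had an unadjusted p under 0.05 against 4.71% of genes.

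The wider pathway list held 94 genes, members included, of which 90 were tested. At an adjusted p under 0.05, edgeR called 0 of 90 in each comparison with Ctrl. At an unadjusted p under 0.05 there were 11 (12.2%) for CoCM, 1 (1.11%) for i.p. and 6 (6.67%) for i.v. Over all genes tested the shares were near these, at 11.9%, 1.77% and 5.78%, so the genes named below are given as values only. The CoCM count was 5 without Ctrl animal 23, 6 without any of Ctrl animal 24, CoCM animal 26 and CoCM animal 27, 7 without Ctrl animal 12, 7 with the length index and 17 under limma-voom. That for i.v. was 3 without animals 36 to 39, without animal 36 alone and in unscaled log2 TPM, 4 without animal 37 and 10 without animal 28. That for i.p. was 0 without animals 36 to 39 and 6 under limma-voom. Among the kinases that phosphorylate eIF2alpha, Eif2ak3, which encodes PERK, was at 51.7 ± 3.99 CPM in CoCM and 58.2 ± 2.72 in Ctrl. Eif2ak2, the kinase that senses double-stranded RNA, was at 89.8 ± 14.5 CPM in Ctrl, 75.4 ± 10.2 after CoCM, 76.7 ± 7.05 after i.p. cells and 74.9 ± 9.74 after i.v. cells, and the ranges overlapped. The log2 differences of Eif2ak2 were -0.25, -0.23 and -0.26 (edgeR adjusted p = 0.383, 0.978 and 0.673). Animals 36, 37, 38 and 39 were at 66.8, 61.8, 68.9 and 58.6 CPM, below all others, and without them the differences were -0.20, -0.19 and -0.17. Without Ctrl animal 23 they were -0.17, -0.14 and -0.18. Cebpg, a dimer partner of ATF4, was the other pathway gene whose CoCM animals did not overlap Ctrl, at 29.2 ± 3.68 against 36.5 ± 2.92 CPM (log2 difference -0.32, SE 0.10, edgeR adjusted p = 0.301). Pathway genes without overlap were 2 of 90 (2.22%) for CoCM, against 1.38% of all genes tested. Gdf15, a secreted stress signal, was at 60.3 ± 16.2 in CoCM and 62.0 ± 7.58 in i.v. against 47.3 ± 9.18 CPM in Ctrl. Its log2 difference for CoCM was 0.35, and 0.21 without CoCM animal 40, which was at 88.9 CPM. In degradation, Selenos was at 69.1 ± 7.46 and Syvn1 at 152 ± 19.4 CPM in CoCM against 58.8 ± 4.16 and 130 ± 13.4 in Ctrl. The others named for CoCM were Eif2s1 (log2 difference 0.16), Mbtps1 (-0.17) and Ero1a (-0.28). With the length index as a covariate these were 0.052, -0.049 and -0.048, and the CoCM differences of Cebpg, Selenos, Eif2ak3 and Eif2ak2 were -0.18, 0.12, -0.097 and -0.16. That of Syvn1 hardly moved, from 0.232 to 0.227, and that of Gdf15 went from 0.35 to 0.24.

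In i.v. ABCB5+ the smallest unadjusted p of the pathway list was that of Cebpb, a transcription factor of stress and inflammation. It was at 148, 92.2, 108, 65.9, 67.7 and 140 CPM in animals 28, 33, 36, 37, 42 and 43, against 51.2 to 76.1 in Ctrl (log2 difference 0.68, SE 0.19, edgeR adjusted p = 0.673). Cth, an enzyme of cysteine synthesis, was at 692 and 795 CPM in animals 36 and 37 and at 74.1 to 131 in the other 4 i.v. animals. Its group difference of 1.61 (SE 0.72, adjusted p = 0.673) thus lay in animals that stood apart, and it was -0.036 without animals 36 to 39. Ppp1r15b, a subunit of the phosphatase that acts on eIF2alpha, was at 88.4 ± 6.48 CPM against 79.2 ± 6.03 in Ctrl.

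Across the pathway list, animals 36 to 39 lay above the other 20 for 6 of 90 genes and below for 6 of 90, against 10% and 14.2% of all genes tested. Those above were Herpud1, P4hb, Derl1, Eif2ak1, Psat1 and Shmt2, of which Herpud1, P4hb and Eif2ak1 also lay above in TMM-scaled TPM, and in unscaled TPM all 6 overlapped. These genes were named after their values were seen. Psat1, an enzyme of serine synthesis, was at 235, 271, 179 and 175 CPM in animals 36, 37, 38 and 39 against 51.0 to 174 in the rest. Those below, in CPM and in both TPM scales, were Eif2ak2, Nupr1, Mthfd2, Casp12, Bcl2l11 and Bbc3. Casp12, a caspase tied to the ER, was at 2.09, 4.18, 3.03 and 2.39 CPM against 16.7 to 29.2, and Bbc3, which encodes the death factor PUMA, at 5.41, 6.04, 8.96 and 5.46 against 15.2 to 25.5. Other members than Herpud1 overlapped in these animals.

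**Figure D5:**
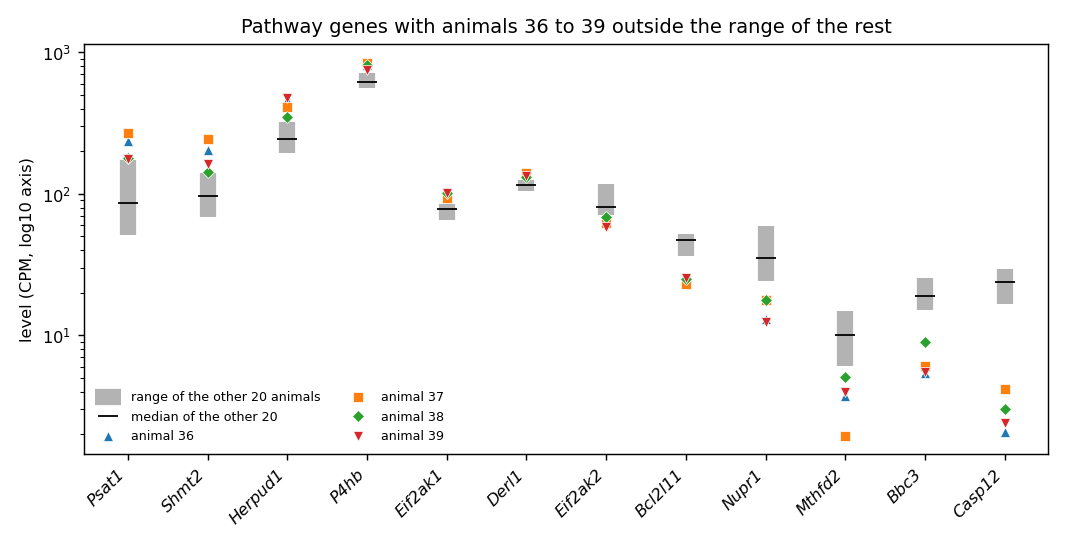
Level (CPM, log10 vertical axis) of the 12 pathway genes (horizontal axis) for which animals 36 to 39 lay outside the other 20. Grey bars are the range and black ticks the median of the 20 animals, and symbols are the 4 animals. Herpud1 and 5 genes lie above and 6 lie below, with Casp12 farthest from the range.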

How the data were processed

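Total RNA of whole left kidneys was sequenced on a BGISEQ-500. The deposited tables hold, for each animal, estimated counts and TPM per Entrez gene, as the authors made them. The submitters' processing notes name Trim Galore 0.6.4, kallisto 0.4.6 and the build rn6, while the study's methods name the human package TxDb.Hsapiens.UCSC.hg19.knownGene; the annotation behind the rat Entrez identifiers is not given in the sources used here. Symbols were taken from RefSeq by identifier (17179 of 17334 matched).

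Counts were rounded, filtered with filterByExpr (12778 genes), scaled by TMM and tested with edgeR 4.0.16 (quasi-likelihood, all 24 animals, no covariate, R 4.3.3). DESeq2 1.42.0, the study's tool, and limma 3.58.1 were alternatives. P-values were adjusted by Benjamini-Hochberg over all genes tested, with 0.05 as the threshold. CPM are TMM-scaled, log2 CPM has a prior count of 2, and log2 TPM a pseudocount of 1. The tests were tested on simulated data. No pair of animals in a group agreed within sampling noise (smallest chi-square per degree of freedom 10.64). Transcript length was taken from the ratio of counts to TPM.

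The members and gene lists were chosen with earlier results of these data known. Named genes were all members, pathway genes with an adjusted p under 0.05 or, for each treatment against Ctrl, up to 5 per direction with the smallest unadjusted p under 0.05, and the 3 genes most like a member by r of log2 CPM over 20 animals, with an average log2 CPM above 1. Promoters came from GRCr8, and no coordinates were converted. Depth limits mainly Trib3.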

Additional observations from a re-analysis of the deposited data

How the results depend on the processing

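No member passed an adjusted p of 0.05 under any alternative, and no pathway gene did. The smallest adjusted p of a member was 0.118, for Atf4 and Atf6 in CoCM under limma-voom. TPM after TMM scaling and the length index were chosen after seeing the data. The values below are log2 fold changes near 0 whose sign turned; the cause was not tested. With limma-trend on unscaled log2 TPM, the signs turned for Hspa5 -0.0165, Hsp90b1 -0.0763, Ddit3 -0.0161 (CoCM against Ctrl), and for Ddit3 -0.0267, Herpud1 -0.0125 (i.p. against Ctrl), and for Xbp1 -0.0452, Asns -0.0327, Calr -0.0603 (i.v. against Ctrl), and for Hsp90b1 0.0072 (i.p. against i.v.), and for Asns -0.0056 (CoCM against both cell groups). With the length index as a covariate, the signs turned for Hspa5 -0.0149, Hsp90b1 -0.0371, Ddit3 -0.0391, Trib3 0.123 (CoCM against Ctrl), and for Ddit3 -0.0222, Herpud1 -0.0145 (i.p. against Ctrl), and for Atf6 0.0345 (i.p. against i.v.), and for Hspa5 -0.0019, Hsp90b1 -0.0079, Trib3 0.0831, Asns -0.0044, Calr -0.0233 (CoCM against both cell groups). With limma-voom and sample quality weights, the signs turned for Trib3 0.0491 (CoCM against Ctrl), and for Hsp90b1 0.0135, Ddit3 -0.0183 (i.p. against Ctrl), and for Xbp1 -0.0117, Atf6 0.0818, Calr -0.0573 (i.v. against Ctrl), and for Hsp90b1 0.106 (i.p. against i.v.), and for Ddit3 0.0206 (CoCM against both cell groups). Without animals 36, 37, 38 and 39, the signs turned for Ddit3 -0.0201, Herpud1 -0.0514 (i.p. against Ctrl), and for Calr -0.0702 (i.v. against Ctrl), and for Hsp90b1 0.032 (i.p. against i.v.), and for Ddit3 0.0285 (CoCM against both cell groups). With at least 10 counts in every sample, the signs turned for Calr -0.0033 (i.v. against Ctrl). Leaving out single animals turned the signs of these differences, given as lowest to highest. For CoCM against both cell groups they ran as Asns -0.0153 to 0.1124, Ddit3 -0.072 to 0.0217, Herpud1 -0.2003 to 0.0542, Hspa5 -0.0108 to 0.162, Trib3 -0.1565 to 0.0418. For i.v. against Ctrl they ran as Asns -0.0066 to 0.1042, Atf6 -0.2603 to 0.0557, Calr -0.0449 to 0.0647, Hsp90b1 -0.0701 to 0.0246, Hspa5 -0.101 to 0.0414, Trib3 -0.0573 to 0.2161, Xbp1 -0.037 to 0.0797. For i.p. against i.v. they ran as Atf6 -0.2959 to 0.0627, Hsp90b1 -0.0538 to 0.0304. For i.p. against Ctrl they ran as Ddit3 -0.0428 to 0.0754, Herpud1 -0.0565 to 0.1149, Hsp90b1 -0.0823 to 0.0107, Hspa5 -0.0281 to 0.1173, Trib3 -0.2607 to 0.0272. For CoCM against Ctrl they ran as Hsp90b1 -0.0345 to 0.0741, Trib3 -0.1885 to 0.0783. No paired analysis was possible because the groups share no animal numbers. Depth limits Trib3, and the members' intervals limit the size of change that could be seen.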
